A study of Mus musculus with 6 samples.

Results

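E14 is a mouse embryonic stem cell line. The series profiled it on 6 Illumina arrays, and the 2 arrays titled replicate 3 are described here against the 4 arrays titled replicates 1 and 2. The tested cells carried shRNAs against Tip5, the chromatin remodelling subunit encoded by Baz2a, and the control cells a non-specific shRNA. Replicate 3 holds 1 array of Tip5-shRNA cells and 1 of control-shRNA cells, and replicates 1 and 2 hold 2 arrays of each. The control cells are labelled wild type and went through the same transfection and selection as the Tip5-shRNA cells. All 6 samples came from cells grown on gelatin with 20% serum and 1000 U/ml of the self-renewal cytokine LIF, electroporated with pSuper vectors, selected with antibiotics for 6 days from 72 hours after transfection, and taken at passage 3. Tip5 shRNA constructs with different selection markers were combined. The labels describe the samples as triplicate transfections and do not say how replicate 3 differed from the others in date, passage history or array slide.

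The split was selected on the measured expression values, because the replicate 3 arrays stood apart in these same data. Every difference between replicate 3 and the other replicates is therefore a description with no p-value. It is given as the log2 difference with shRNA group held constant (positive where replicate 3 was higher) and, where shown, a standard error (SE) on 3 residual degrees of freedom. Levels are log2 normalized signals, and a level is compared only between arrays, not between probes. One contrast does not use the shared difference and was tested: whether replicate 3 differed by the same amount in Tip5-shRNA and control-shRNA cells. Each shRNA group has 1 replicate 3 array, so the spread in that test comes from replicates 1 and 2 alone.

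Embryonic stem cells in serum and LIF are a mixture. A small and changing minority of cells enters a state that expresses genes of the 2-cell embryo, such as the Zscan4 and Tcstv families. Others drift towards primitive endoderm, which is set up by the transcription factor Gata6 and makes a basement membrane of type IV collagen and laminin. In total RNA from a whole culture, more cells of one type and more RNA per cell cannot be told apart.

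The replicate 3 arrays resembled each other more than their own shRNA groups. Over 9641 genes the Tip5-shRNA and control-shRNA replicate 3 arrays correlated at r = 0.983, and each correlated with the other 4 arrays at 0.948 to 0.968. Replicates 1 and 2 of a group correlated at 0.991. The replicate 3 arrays were also brighter. Their mean raw signals were 1092 (Tip5) and 876 (control), against 486 to 544 on the other 4 arrays, and 40 and 38 of their probes passed a signal of 30000, against 9 to 16. Slide and scan are not given in the sources used here, so a difference between cultures and a difference between array runs cannot be told apart.

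All 5 embryonic stem cell markers (Pou5f1, Nanog, Sox2, Zfp42, Esrrb) were detected on all 6 arrays. Of the markers of other cells, the fibroblast collagen Col3a1 and Postn, the trophectoderm factor Elf5, the mesoderm factors Mixl1 and Mesp1 and the neural factors Pax6 and Sox1 were detected on 0 arrays, while Thy1 was detected on all 6, the trophectoderm factor Gata3 on 4, and Col1a1, Col1a2 and the neuronal tubulin Tubb3 on 1 each. Cdx2, a trophectoderm and intestinal factor, was detected on the Tip5 replicate 3 array only, at a level of 7.12, against 4.57 to 4.89 on the other 5 arrays. Baz2a itself was 5.13 (Tip5) and 5.99 (control) in replicate 3, against 5.21 and 4.74 in Tip5 replicates 1 and 2 and 6.42 and 7.51 in control replicates 1 and 2. Its Tip5 array lay below its control array in all 3 replicates.

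A gene was counted as higher or lower when replicate 3 differed at least 2-fold and both of its arrays lay beyond all 4 others. Arrays are compared across shRNA groups, so a gene that also differed between Tip5 and control could pass 2-fold and stay uncounted. By this rule 466 of the 9641 genes were higher (4.83%) and 284 were lower (2.95%). At any size, 2128 genes (22.1%) had both replicate 3 arrays above the other 4 and 2353 (24.4%) had both below. Genes below at any size were thus slightly more numerous, while more of those above reached 2-fold. The split depends on scaling: 62.1% of called genes were higher here, 96.0% with each array scaled to its median, 77.5% with the authors' processed values and 72.4% without background correction. Median scaling put the median of all genes at 0.42 and the authors' values put it at 0.21, against -0.04 here. Lists are therefore also read relative to all genes. Without the control replicate 3 array, 478 genes counted as lower.

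The differences were largely shared by both shRNA groups. The split was chosen because both replicate 3 arrays stood apart, so this agreement was partly built in and is description only. Replicate 3 minus replicates 1 and 2 correlated between Tip5-shRNA and control-shRNA cells at r = 0.70 across genes (Spearman's rho 0.68), which share arrays and are not independent, and 76.0% of genes had the same sign. In Tip5-shRNA cells 1188 genes differed at least 2-fold and in control-shRNA cells 845. The 457 genes that did so the same way in both groups were 38.5% of the Tip5 set and 54.1% of the control set.

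**Figure D1:**
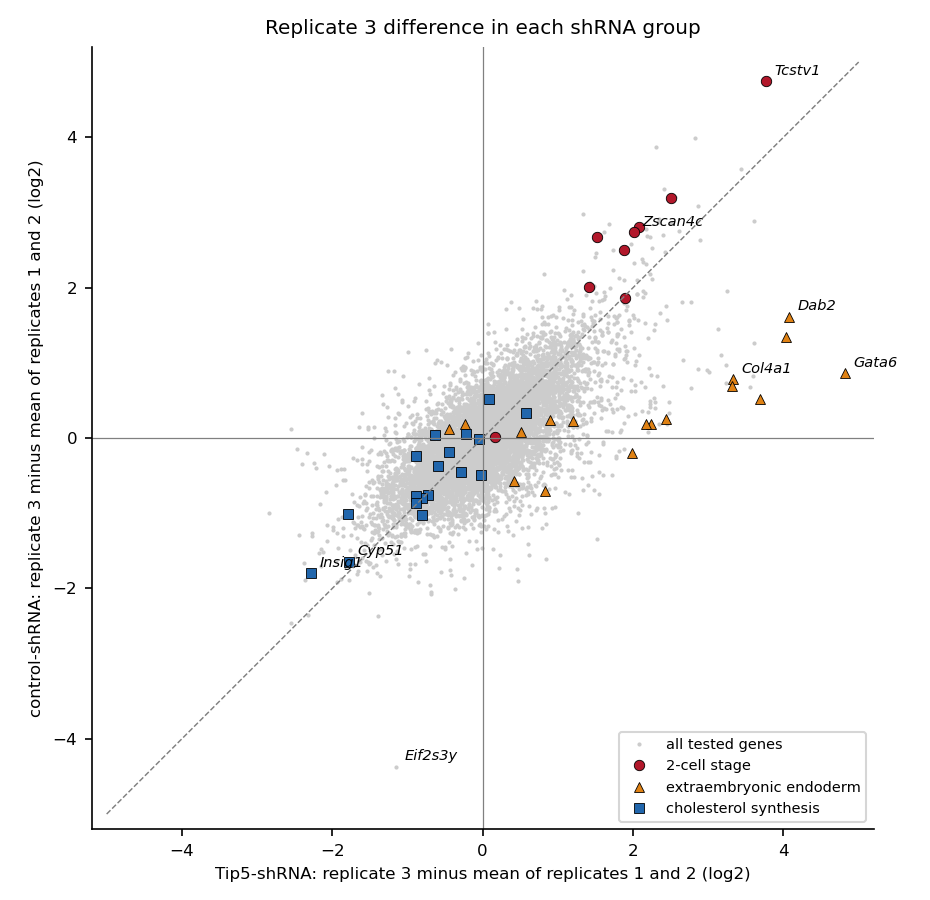
Replicate 3 minus the mean of replicates 1 and 2 for each tested gene, in Tip5-shRNA cells (x axis, log2) and control-shRNA cells (y axis, log2), with 3 gene lists marked and equality dashed. The 2-cell stage genes lie up along the diagonal except Tdpoz1, most endoderm genes lie far to the right and close to the axis, and the cholesterol genes lie mainly down the diagonal.

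Genes of the 2-cell stage led the higher set. Of 23 listed, 16 had a probe and 9 could be tested. Of these, 8 were counted as higher and 0 as lower, against 4.83% and 2.95% of all genes. The median difference was 2.19 (1.90 within Tip5-shRNA cells and 2.67 within control-shRNA cells), against -0.04 over all genes. Relative to all genes it ran from 0.93 to 3.03 over the scalings tried. For 3 of the 8 the filter was passed only through the replicate 3 arrays. The 6 members detected on 2 or more of the other arrays, a subset taken after the values were seen, held 5 higher. Their median was 2.29, against -0.07 over the 9067 genes detected so, of which 412 were higher. The split was picked on these values, so the counts describe the list and support nothing.

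Tcstv1, a 2-cell stage gene of a cluster on chromosome 13, differed most of all named genes. It read 11.35 (Tip5) and 11.23 (control) in replicate 3, against 7.94 and 7.22 in Tip5 replicates 1 and 2 and 6.55 and 6.42 in control replicates 1 and 2. Both replicate 3 arrays were far above the rest, and the difference was 4.26 (SE 0.38), or 19.1-fold. Its neighbour Tcstv3 read 11.65 (Tip5) and 11.83 (control) in replicate 3, against 9.24 and 9.05 in Tip5 replicates 1 and 2 and 8.28 and 9.0 in control replicates 1 and 2 (difference 2.85, SE 0.33). Zscan4c belongs to a zinc finger family linked to telomere maintenance in stem cells. It read 13.21 (Tip5) and 12.58 (control) in replicate 3, against 11.29 and 11.09 in Tip5 replicates 1 and 2 and 9.69 and 9.99 in control replicates 1 and 2 (difference 2.38, SE 0.24). In replicates 1 and 2 the Tip5 arrays of Zscan4c, Tcstv1, Tcstv3 and Tmem92 lay above the control arrays, so the distance to replicate 3 was longer in control cells. Tmem92, a membrane protein gene, read 10.83 (Tip5) and 10.18 (control) in replicate 3, against 8.98 and 8.91 in Tip5 replicates 1 and 2 and 7.74 and 7.60 in control replicates 1 and 2.

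Some of the dimmer members passed the filter only because they were detected in replicate 3, so their being higher there adds no support. Tdpoz4 and Tdpoz2, of a family of BTB domain proteins known from early embryos, and Usp17la, a deubiquitinase, were detected on both replicate 3 arrays and on 0 of the other 4. They were at least 4.53-fold, at least 3.58-fold and at least 2.29-fold higher, with the lowest detected signal, or the probe's own where higher, taken as the level of the undetected arrays. Ubtfl1, a 2-cell stage HMG box gene, read 6.90 (Tip5) and 6.86 (control) in replicate 3, against 4.70 and 5.30 in Tip5 replicates 1 and 2 and 4.76 and 5.22 in control replicates 1 and 2. Tdpoz1 was the 1 tested member not called: its difference was 0.09 and its arrays overlapped. Zfp352, another marker of this state, was detected on the control replicate 3 array alone. Several of these families have near-identical copies, so a probe can also read a relative.

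The 2-cell stage state is driven by the double homeobox factor Dux, known to bind sites with the core letters GATTNNATC. The 250 bases before the start of Zscan4c are shown because that stretch holds such letters and the gene is the best known marker of the state. The sequence is from RefSeq (GRCm38.p6, chr7:11005495-11005744, plus strand), and capitals mark the match, which lies on the opposite strand 113 to 105 bases before the start.
Zscan4c: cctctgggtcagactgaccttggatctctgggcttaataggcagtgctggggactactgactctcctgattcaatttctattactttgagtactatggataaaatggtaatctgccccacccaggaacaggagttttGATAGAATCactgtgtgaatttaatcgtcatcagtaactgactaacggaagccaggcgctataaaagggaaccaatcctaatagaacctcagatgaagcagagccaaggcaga
Both strands were searched. These letters occur in 458 of 32851 promoter stretches of this length (1.39%), and of the 9 tested 2-cell stage genes 5 had a promoter in the table and 1 held them. A match is a description of the letters and not evidence of binding.

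**Figure D2:**
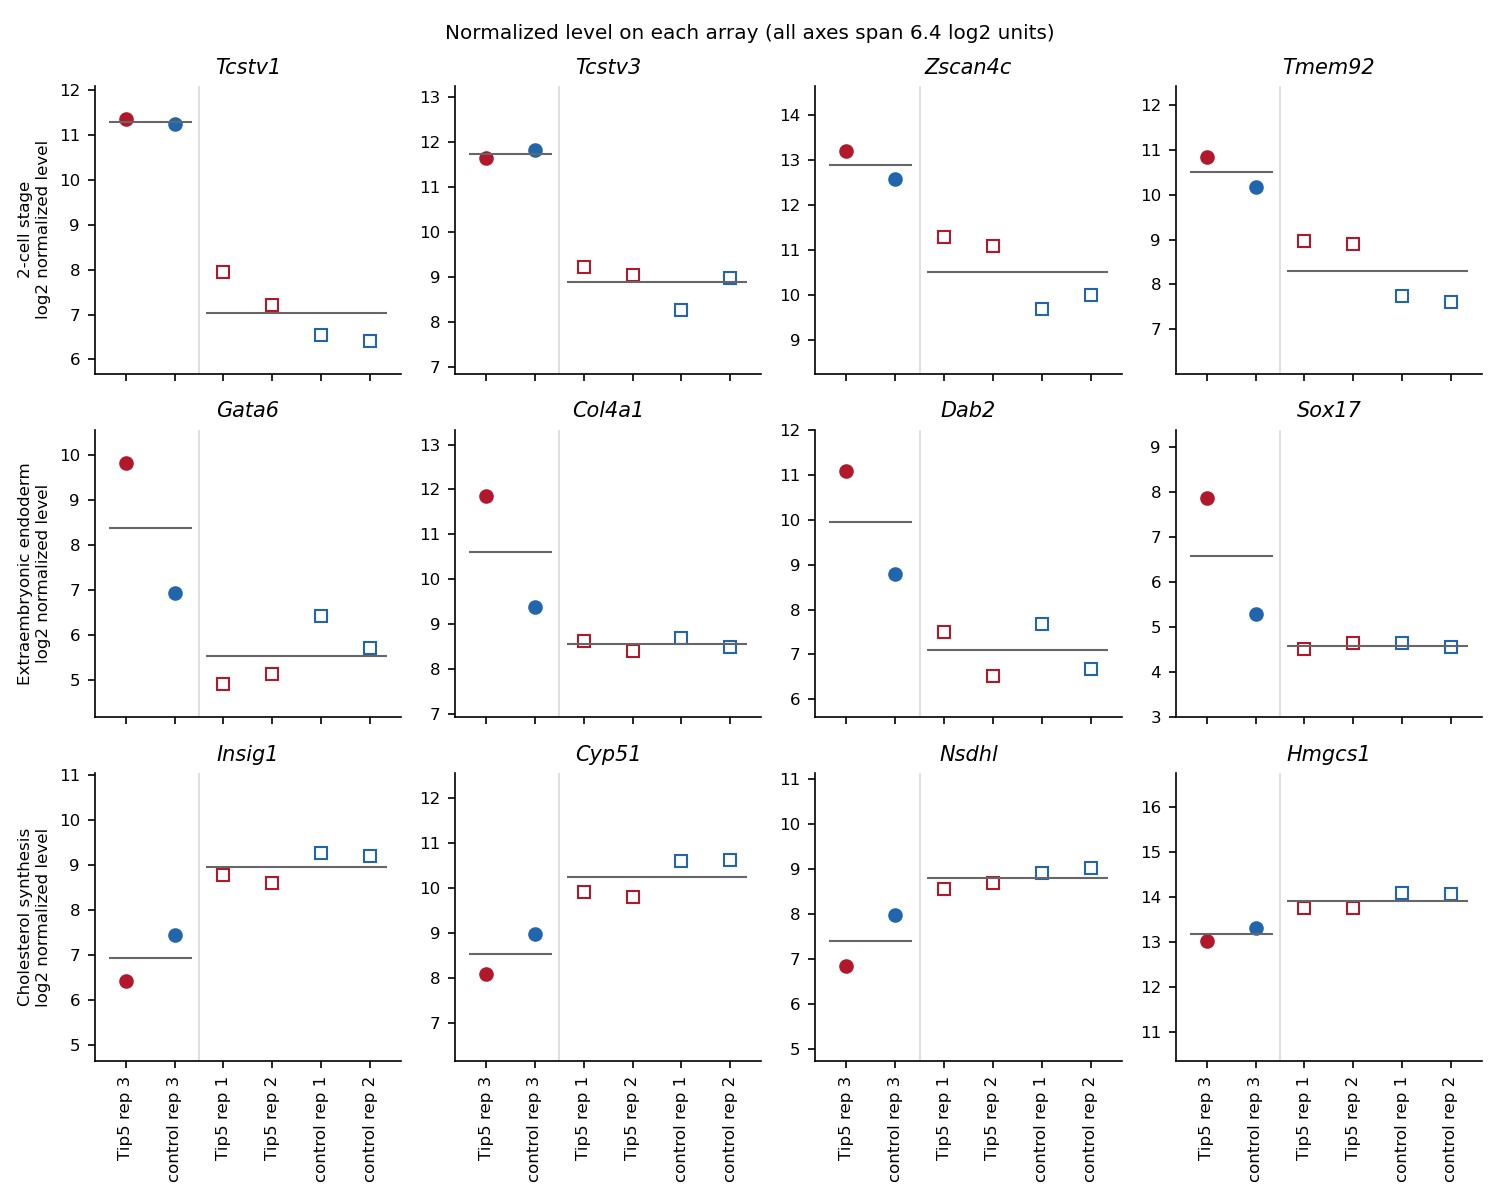
Log2 normalized level of 12 genes on each array (one point per array, Tip5-shRNA red and control-shRNA blue, replicate 3 filled, replicates 1 and 2 open, grey lines at the mean of the 2 and of the 4 arrays). Tcstv1, Tcstv3, Zscan4c and Tmem92 are high on both replicate 3 arrays, the endoderm genes are highest on the Tip5 replicate 3 array alone, and Insig1, Cyp51, Nsdhl and Hmgcs1 are low on both.

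Extraembryonic endoderm genes were also higher in replicate 3, but mostly on its Tip5 array. Of 27 listed, 17 could be tested, and 8 were counted as higher and 0 as lower, against 4.83% and 2.95% of all genes. Sox17 and Sox7 were detected on none of the other arrays and passed the filter only through the replicate 3 arrays. The 12 members detected on 2 or more of the other arrays held 5 higher, with a median of 0.94. Over the 9067 genes detected so, 412 were higher and the median was -0.07. All called members outside those 12 needed the replicate 3 arrays to pass. The median difference was 1.17 over all 17 genes. It was 2.17 within Tip5-shRNA cells and 0.22 within control-shRNA cells, and for 15 of the 17 genes the Tip5 difference was the larger. Relative to all genes, the list median ran from 0.55 to 1.21 over the scalings tried, and the scaling used here gave the highest value.

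Gata6, the transcription factor that starts this lineage, read 9.84 (Tip5) and 6.93 (control) in replicate 3, against 4.90 and 5.13 in Tip5 replicates 1 and 2 and 6.42 and 5.70 in control replicates 1 and 2. Its control replicate 3 array cleared the highest other array by a small margin, while its Tip5 replicate 3 array stood far above every other. Col4a1, a type IV collagen chain, read 11.86 (Tip5) and 9.38 (control) in replicate 3, against 8.64 and 8.41 in Tip5 replicates 1 and 2 and 8.69 and 8.49 in control replicates 1 and 2. Its partner chain Col4a2 read 11.20 (Tip5) and 8.41 (control) in replicate 3, against 7.09 and 7.26 in Tip5 replicates 1 and 2 and 7.09 and 7.06 in control replicates 1 and 2. Dab2 is an endocytic adaptor of endoderm cells. It read 11.08 (Tip5) and 8.79 (control) in replicate 3, against 7.50 and 6.52 in Tip5 replicates 1 and 2 and 7.68 and 6.67 in control replicates 1 and 2, and a second probe gave 3.05 against the 2.84 of the first. For Dab2 and both collagens the control replicate 3 array also lay above the 4 others, by less.

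Sox17 and Sox7, SRY-box factors of endoderm, were undetected on the 4 other arrays and detected on both of replicate 3. Sox17 read 7.89 (Tip5) and 5.30 (control) in replicate 3, against 4.51 to 4.64 on the others, and was at least 2.85-fold higher. Sox7 was at least 3.17-fold higher. Pdgfra, a growth factor receptor of primitive endoderm, differed by 2.44 in Tip5-shRNA cells and 0.25 in control-shRNA cells. Sparc, a matrix glycoprotein, differed by 2.17 and 0.18, and its second probe showed -0.03. Lama1, a laminin chain, differed by 2.24 and 0.19 and was not counted, because its control replicate 3 array lay below one of the others. Gata4, which acts with Gata6 in this lineage, was detected on 1 array.

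Whether the replicate 3 difference was unequal between the shRNA groups was tested with limma's interaction term over 14031 probes. After Benjamini-Hochberg adjustment 0 probes passed (0%), and 1338 (9.54%) had an unadjusted p under 0.05. The lowest adjusted p was 0.286, and genes of other kinds shared it, among them Eif2s3y, Robo4, Taf7l and Gpx3. Several endoderm genes had that value: the Tip5 difference exceeded the control difference by 3.95 for Gata6 (SE 0.47), by 2.55 for Col4a1 (SE 0.28) and by 2.69 for Col4a2 (SE 0.25), each with a limma adjusted p of 0.286. For Dab2 it did so by 2.46 (SE 0.79, limma adjusted p = 0.453) and for Lama1 by 2.06 (SE 0.44, limma adjusted p = 0.382). Sox17 and Sox7 were undetected on the other 4 arrays, so the sizes of their differences rest on background signal. Over the settings they ran from 1.18 to 4.12 for Sox17 and from 1.5 to 5.54 for Sox7. For Pdgfra the range was 0.80 to 4.29. Gata6 was detected on 3 of the other 4 arrays and read only 4.90 and 5.13 in Tip5 replicates 1 and 2, so its size rests partly on low signal. For Zscan4c the Tip5 difference was smaller by 0.72 (SE 0.30, limma adjusted p = 0.546) and for Tcstv1 by 0.98 (SE 0.46, limma adjusted p = 0.569).

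The outcome for the endoderm genes depended on processing. In 17 alternatives the count of probes past the threshold was 0 in 12, and 178, 148, 41, 19 and 3 in the other 5. Gata6, Col4a1 and Col4a2 passed in 4 settings each, Sox17 and Sox7 in 5, Sparc and Pdgfra in 3 and Dab2 in 1, with limma adjusted p ranging from 0.000713 to 0.62 for Gata6. Zscan4c, Tcstv1 and Tcstv3 passed in 0 settings, and the Y-linked Eif2s3y passed in 5. The direction for the named endoderm genes was the same in every setting that tested them: the Gata6 difference ranged from 2.41 to 4.95 and that of Col4a1 from 2.34 to 2.66. Since each arm of the test rests on 1 replicate 3 array, it has 2 residual degrees of freedom and holds no measure of the spread between replicate 3 cultures.

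The lower set included genes of sterol synthesis. Of 24 listed, 18 could be tested. None was higher and 3 were lower, where 4.83% and 2.95% of all genes were. In 10 both replicate 3 arrays lay below the other 4 (24.4% of all genes). The difference was negative in 16, and in 5053 of all 9641 genes. The median was -0.52, and relative to all genes it stayed between -0.62 and -0.35 under every scaling tried.

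Insig1, which holds the sterol sensor in the endoplasmic reticulum, read 6.42 (Tip5) and 7.45 (control) in replicate 3, against 8.79 and 8.61 in Tip5 replicates 1 and 2 and 9.28 and 9.20 in control replicates 1 and 2. The difference was -2.04 (SE 0.16), and its other probes showed -1.51 and -0.24. Cyp51, the lanosterol demethylase, read 8.09 (Tip5) and 8.97 (control) in replicate 3, against 9.91 and 9.81 in Tip5 replicates 1 and 2 and 10.60 and 10.62 in control replicates 1 and 2 (difference -1.71, SE 0.05). Nsdhl, a sterol dehydrogenase, was also called, with a difference of -1.40 and other probes at -0.52, -0.52 and -1.41. Srebf2, the transcription factor of the pathway, differed by -0.92, the prenyl synthase Fdps by -0.88, Mvd by -0.83, squalene epoxidase (Sqle) by -0.80 (-1.86 on a second probe) and Hmgcs1 by -0.75. For these 5 genes the replicate 3 arrays lay below all others without reaching 2-fold. Outside the list, the fatty acid desaturase Fads2 differed by -1.69 (SE 0.06) and the acetate-activating enzyme Acss1 by -1.76 (SE 0.41).

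Srebf2 protein binds sterol regulatory letters of the kind TCACNCCAC. The 250 bases before the start of Hmgcs1, the enzyme that feeds HMG-CoA into the pathway, are shown because this was the list member whose stretch held them. The sequence is from RefSeq (GRCm38.p6, chr13:119690101-119690350, plus strand), and capitals mark the match, 137 to 129 bases before the start.
Hmgcs1: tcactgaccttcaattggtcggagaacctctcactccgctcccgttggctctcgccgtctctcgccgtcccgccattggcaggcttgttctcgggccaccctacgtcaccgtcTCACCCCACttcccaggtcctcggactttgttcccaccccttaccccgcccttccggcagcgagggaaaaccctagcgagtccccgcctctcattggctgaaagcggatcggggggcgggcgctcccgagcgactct
With both strands searched, 346 of 32851 promoter stretches (1.05%) held these letters, and of the 18 tested genes 15 had a promoter in the table and 1 held them. Hmgcs1 read 13.02 (Tip5) and 13.31 (control) in replicate 3, against 13.75 and 13.76 in Tip5 replicates 1 and 2 and 14.08 and 14.07 in control replicates 1 and 2.

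Of 21 pluripotency genes tested, 1 was higher and 1 lower, near the 4.83% and 2.95% of all genes, and the median was 0.05. Relative to all genes the median changed sign with scaling, from -0.21 to 0.08. Nanog read 12.36 (Tip5) and 12.65 (control) in replicate 3, against 11.36 and 11.52 in Tip5 replicates 1 and 2 and 11.80 and 11.37 in control replicates 1 and 2. Both replicate 3 arrays were above the rest, and the difference of 0.99 was just under 2-fold. Pou5f1 read 12.89 (Tip5) and 12.88 (control) in replicate 3, within the range of 12.84 to 13.37 on the others. Sox2 differed by -0.98 with a second probe in the opposite direction, and Fgf4, a growth factor of the inner cell mass, by -1.03. The called higher member, Sall4, differed by 1.68 on its brightest probe and by -0.33 and -1.15 on its others. Of 7 formative genes tested 0 were called. Otx2, a factor of the formative state, differed by -0.93. Fgf5 was undetected on both replicate 3 arrays and read 6.30 and 6.00 in Tip5 replicates 1 and 2, against 4.88 and 4.44 in control replicates 1 and 2.

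**Figure D3:**
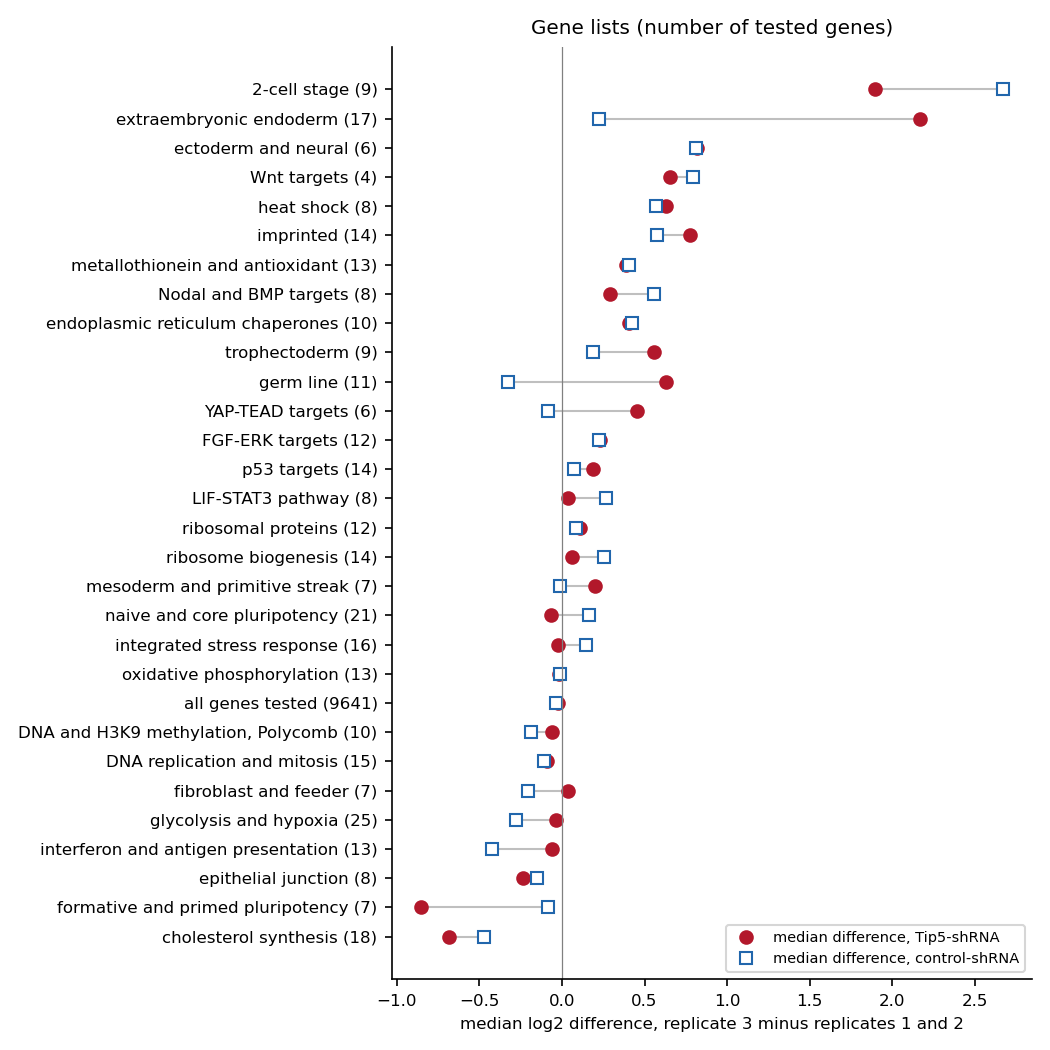
Median log2 difference of each gene list with at least 4 tested genes, in Tip5-shRNA cells (filled circles) and control-shRNA cells (open squares), and over all genes tested. The 2-cell stage list is far right in both groups, the endoderm list is at 2.17 in Tip5-shRNA cells and 0.22 in control-shRNA cells, and the cholesterol list is left of 0 in both.

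Signalling targets differed gene by gene. Over all genes 4.83% were counted as higher and 2.95% as lower, so nothing about a list is read from 1 or 2 calls. Among Nodal and BMP targets, Id1, a BMP-induced inhibitor of differentiation factors, read 11.42 (Tip5) and 10.37 (control) in replicate 3, against 9.71 and 9.32 in Tip5 replicates 1 and 2 and 9.29 and 9.23 in control replicates 1 and 2. The Nodal antagonist Lefty2 was lower: it read 8.53 (Tip5) and 10.25 (control) in replicate 3, against 11.38 and 11.38 in Tip5 replicates 1 and 2 and 11.63 and 10.87 in control replicates 1 and 2. Dusp6 and Spry4, feedback inhibitors of FGF signalling, differed by 1.13 and 1.07 and were the 2 called of 12 list members, although a further Dusp6 probe showed -0.12. Axin2, a feedback inhibitor of Wnt signalling, differed by 1.30 and was the 1 gene called of 4. Gbx2, a homeobox gene that LIF maintains in stem cells, differed by 1.24. Of 8 LIF and STAT3 pathway genes 0 were called.

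Imprinted genes split. Peg10, a retrotransposon-derived gene, read 7.24 (Tip5) and 7.12 (control) in replicate 3, against 4.60 and 5.00 in Tip5 replicates 1 and 2 and 5.72 and 5.39 in control replicates 1 and 2. Dlk1, a Notch ligand relative, differed by 1.84 (SE 0.09), and Mest by 1.60 with its other probes at 1.59 and 1.33. Nnat and Peg3 were lower, by -1.52 and -1.01. Of 14 tested imprinted genes, 3 were higher and 2 lower, where 4.83% and 2.95% of all genes were.

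Stress and growth lists had mainly small median differences. The heat shock gene Hspb1 read 12.27 (Tip5) and 12.04 (control) in replicate 3, against 9.97 and 10.01 in Tip5 replicates 1 and 2 and 10.66 and 10.55 in control replicates 1 and 2. Of 8 heat shock genes 7 had both replicate 3 arrays above the rest (22.1% of all genes did), but only Hspb1 reached 2-fold. Bop1 and Nop2, factors of ribosome assembly, were higher by 1.49 and 1.40, although the other Nop2 probes showed 0.22 and 0.29 and the list median of 14 genes was 0.10. Nolc1, a nucleolar protein, was undetected on the other 4 arrays and at least 2.13-fold higher. Ccne1, the cyclin of S phase entry, was higher by 1.34. It was the only one called of 15 replication and mitosis genes, where 4.83% of all genes were higher. In the integrated stress response list 8 genes had a positive and 8 a negative difference. Its called members were Ddit3, at -1.05 with another probe at -0.26, and Vldlr, at -1.40 with others at 0.02 and -0.95. Of 10 endoplasmic reticulum chaperones 7 had both replicate 3 arrays above the rest, against 22.1% of all genes. Their median was 0.41, while Calr was called lower at -1.25. None of 25 glycolysis and hypoxia genes, 13 oxidative phosphorylation genes or 12 ribosomal protein genes was called (4.83% and 2.95% of all genes were counted as higher and lower), from which nothing is read. Pfkp differed by -1.22 in Tip5-shRNA cells and -1.38 in control-shRNA cells, and Aldoc by -1.13 and -1.37. Both passed 2-fold in each group but were not called, because their control replicate 3 array lay above the Tip5 arrays of replicates 1 and 2.

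The other genes named as most higher belonged to varied functions. Lpar4, a lysophosphatidic acid receptor, differed by 2.97 (SE 0.50), and Lgals4, a galectin, by 2.77 (SE 0.12) on its brightest probe, by 2.91 and -0.22 on its others. S1pr2, a sphingosine phosphate receptor, differed by 2.69, the tyrosine phosphatase Ptpre by 2.60 (0.20 on a second probe), and Clgn, a testis chaperone, by 2.60. Pramel20, Pramel37, Pramel17 and Pramel31, of a family expressed in embryos and germ cells, differed by 2.24 to 2.63. Robo4, a guidance receptor, differed by 2.29 and Ccl3, a chemokine, by 2.23.

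Eif2s3y, the Y-linked translation initiation subunit, was among the genes called lower. It read 7.82 (Tip5) and 4.50 (control) in replicate 3, against 8.95 and 9.0 in Tip5 replicates 1 and 2 and 8.79 and 8.95 in control replicates 1 and 2. It was undetected on the control replicate 3 array, so no size is given there, and in Tip5-shRNA cells the difference was -1.16. Its X-linked partner Eif2s3x stayed between 10.88 and 11.29 on all 6 arrays. Of 16 Y-linked probes 11 were detected on 0 arrays. Uty, a Y-linked demethylase relative, was dim but detected on both replicate 3 arrays, at 5.09 (Tip5) and 5.21 (control), against 4.74 and 5.21 in Tip5 replicates 1 and 2 and 5.13 and 4.78 in control replicates 1 and 2, and differed by 0.18.

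Among autosomal genes Zfp763, a zinc finger gene, differed by -2.51 (SE 0.11) with a second probe at -0.81. Pik3ip1, an inhibitor of PI3 kinase, read 5.42 (Tip5) and 5.90 (control) in replicate 3, against 7.67 and 7.82 in Tip5 replicates 1 and 2 and 8.25 and 8.25 in control replicates 1 and 2, a difference of -2.34 (SE 0.05). Lrrc34, a leucine-rich repeat gene of stem and germ cells, read 9.94 (Tip5) and 10.27 (control) in replicate 3, against 12.28 and 12.33 in Tip5 replicates 1 and 2 and 12.23 and 12.10 in control replicates 1 and 2. In both genes the 2 replicate 3 arrays lay close together and well below the 4 others. Rasgrp1, a Ras exchange factor, differed by -2.02 (-0.68 on a second probe), the keratin Krt19 by -1.88, the interferon-induced Ifitm1 by -1.87 (-1.31 and 0.44 on others) and Fah, a tyrosine breakdown enzyme, by -1.71. Leaving out Eif2s3y, the genes named as the 25 largest lower ran from -2.51 to -1.69, and those named as the 25 largest higher from 2.23 to 4.26. Called genes named from the lists could differ by less.

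Probes of one gene did not give one replicate 3 difference. Over 2610 pairs of probes of the same gene, each detected on all 6 arrays, the difference correlated between probes at r = 0.29. Across the same pairs the Tip5 minus control difference in replicates 1 and 2 correlated at 0.75. The SD over pairs was 0.56 for the replicate 3 difference and 0.42 for the Tip5 minus control difference. Among the 466 higher genes, 75 had other tested probes, and 70 of those 100 probes had the same direction, 17 of them by at least 2-fold, while 2 were at least 2-fold opposite. Among the 284 lower genes, 95 of 124 other probes had the same direction, 24 by at least 2-fold and 2 opposite. The opposite genes were Arpc1b, Pde4dip, Sall4 and Trpc4ap. The replicate 3 arrays were also the brighter ones, and the part of brightness in this disagreement was not tested. Of the 2-cell stage and endoderm genes called, 2 had another tested probe, Dab2 (3.05) and Sparc (-0.03), so most of these calls rest on 1 probe.

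**Figure D4:**
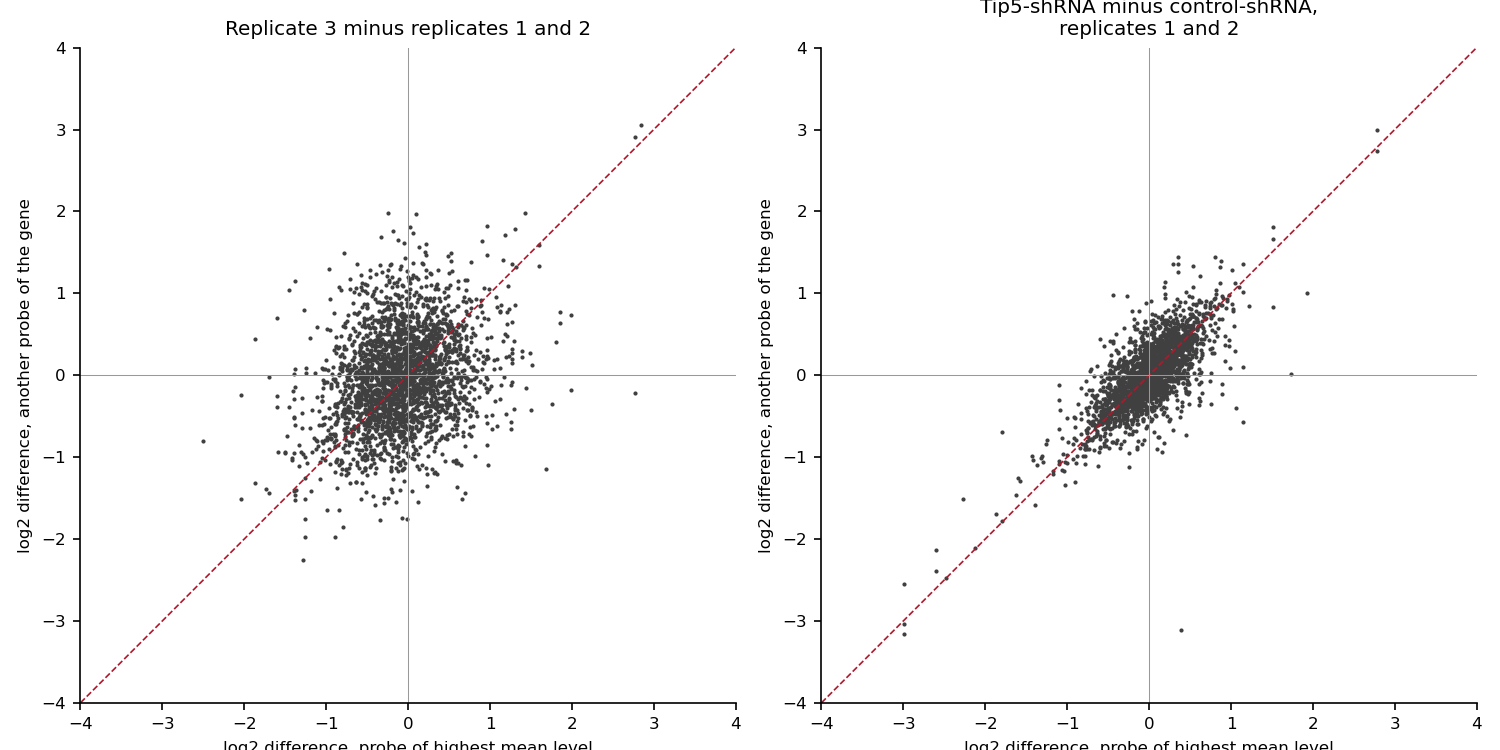
Log2 differences of pairs of probes for the same gene, detected on all 6 arrays (2610 pairs), with equality dashed. The replicate 3 difference (left) is scattered widely at r = 0.29, and the Tip5 minus control difference in replicates 1 and 2 (right) follows the diagonal at r = 0.75.

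One chromosome carried a difference that was not shared. In Tip5-shRNA cells the median replicate 3 difference of chromosome 11 genes was 0.21, with 62.6% of 877 genes positive, while it lay between -0.19 and 0.01 on the other autosomes. In control-shRNA cells it was -0.04. Ordered along the chromosome in eighths, the first 2 eighths had medians of -0.14 and -0.12 in Tip5-shRNA cells, and the other 6 lay between 0.25 and 0.42. Relative to all genes, those 658 genes stood at 0.13 (Tip5) and 0.14 (control) in replicate 3, at -0.26 and -0.23 in Tip5 replicates 1 and 2, and at 0.12 and 0.13 in control replicates 1 and 2. The arrays that stood apart were thus Tip5 replicates 1 and 2. Relative to all genes, the Tip5-shRNA difference stayed between 0.20 and 0.41 under the alternatives that could give it. Without chromosome 11, a setting added after the data were seen, 406 genes were higher and 269 lower.

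**Figure D5:**
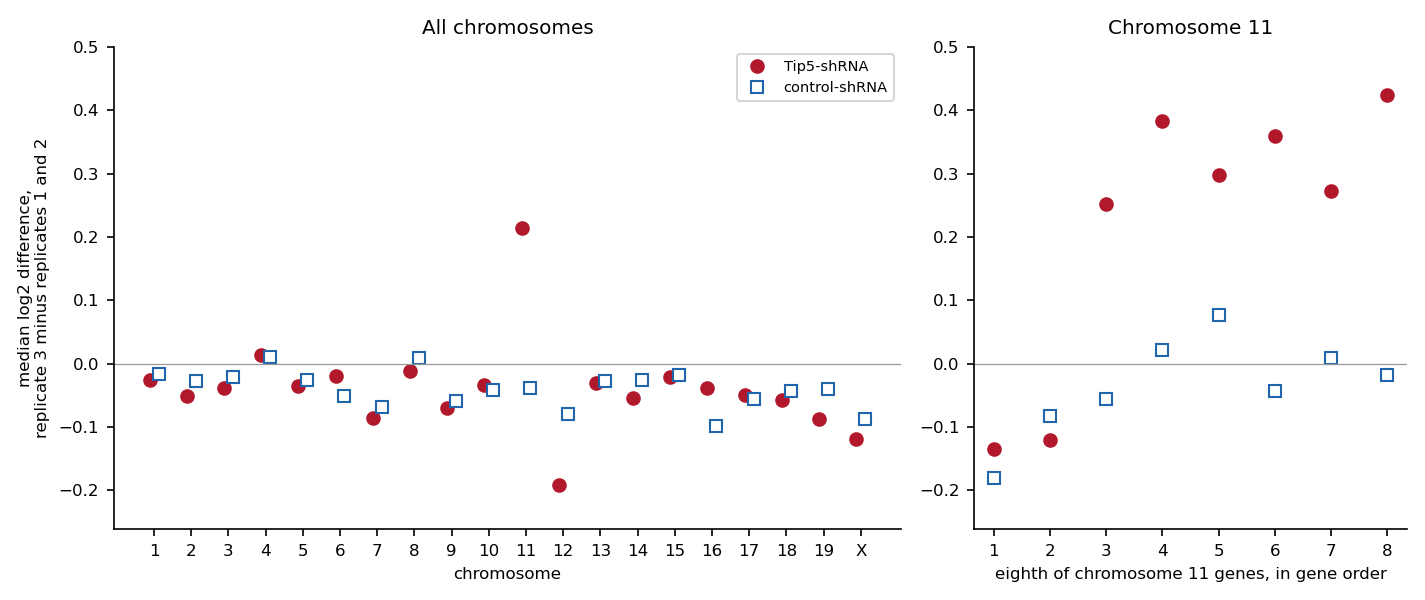
Median log2 difference between replicate 3 and replicates 1 and 2 by chromosome (left) and along chromosome 11 in eighths of its tested genes (right), in Tip5-shRNA cells (filled) and control-shRNA cells (open). Chromosome 11 stands at 0.21 in Tip5-shRNA cells, and its last 6 eighths lie between 0.25 and 0.42.

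The filter on detection had an edge that the calls reflect. Probes detected on exactly 2 arrays, just inside it, numbered 967 with a median difference of 0.07, and those detected on exactly 1 array, just outside, numbered 1652 with a median of -0.03. Of the 466 higher genes 36 were detected on both replicate 3 arrays and on none of the others. These entered only through replicate 3, and higher genes detected on 1 other array also needed it to pass. Among genes detected on 2 or more of the other arrays, 412 were higher and 284 lower. In the other direction, 655 probes were detected on 0 replicate 3 arrays and on 2 to 4 others, with a median of -0.48, and 30 genes counted as lower stood by such probes. Most higher genes were of low to middle level: with genes ranked by mean level into 5 equal bins, bins 2 and 3 held 148 and 130 of them and the brightest bin 35.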

How the data were processed

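Per the labels, 6 biotinylated RNA samples were hybridised to Illumina mouse arrays. The authors deposited a signal intensity and a detection p-value per probe and array, per the file headers. The submitters' processing notes list GenomeStudio 2011.1 with no role. A second deposited table holds the authors' processed intensity, a linear scale used only as an alternative. The sources used here do not name its scaling method, but its array means were almost equal, from 538.3 to 538.6 on the 6 arrays. The deposited intensity was background-corrected here (limma 3.58.1, R 4.3.3, normexp with detection p-values in place of control probes, offset 16), quantile normalized and put on a log2 scale. Of 25697 probes, 14031 (54.6%) had detection p under 0.05 on 2 or more arrays. Probes had 1 symbol in 23978 cases and none in 1719, and 825 of the tested probes stand without a name. For 23962 probes the Entrez identifier gave the current symbol in RefSeq's mouse table (GRCm38.p6). The brightest tested probe on average represents each of 9641 genes.

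The shared difference is the limma coefficient of replicate 3 with shRNA group as covariate. The interaction was tested with lmFit and eBayes, Benjamini-Hochberg adjusted over the tested probes, and the procedure was tested on simulated data. The number of arrays limits precision, and p-values measure only the spread between these samples.

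The members, the 30 gene lists (482 entries, 58 without a matched gene) and the tests were chosen with earlier results of these data known. Named genes are the 25 largest in each direction whose difference was at least 2-fold in both shRNA groups, without predicted or clone names, 6 markers, Baz2a, and up to 6 members of each list. Genes named outside this rule were chosen after their values were seen. The titles of the samples give the replicate numbers. Same-numbered arrays deviated together from their group means (r = 0.42, 0.51 and 0.70 for replicates 1, 2 and 3). The 0.70 is the correlation between shRNA groups given above and not a separate check. Those means include replicate 3, whose shared difference alone moves replicates 1 and 2 of both groups the other way. The values therefore cannot show whether the numbers pair the arrays. The interaction was also fitted with the replicate number as a block.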

Additional observations from a re-analysis of the deposited data

How the results depend on the processing

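The count of genes higher in replicate 3 was 466 and became 157 without background correction, 280 with an offset of 50, 1681 with median scaling, 1340 with the authors' processed values, 1212 at 1.5-fold and 56 at 4-fold. The count of genes lower was 284 and became 60 without background correction, 141 with an offset of 50, 70 with median scaling, 1151 at 1.5-fold and 6 at 4-fold. Leaving out arrays or replicates gave 462 to 626 higher and 260 to 478 lower, and the 478 came without control-shRNA replicate 3. Cyclic loess, stricter or no detection filters and the mean of probes kept both counts within 1.5 times. Of the 750 called genes, all but at most 1 of those tested had the same sign in each alternative. None of the 88 called genes named in the text or by the rule reversed in 1551 values over 18 settings, while 321 of the values moved.

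The interaction called 0 probes with limma (1338 at an unadjusted p under 0.05). It called 178 without background correction, 19 with an offset of 50, 41 with median scaling, 3 with cyclic loess and 148 with a variance trend. It called 0 with the authors' values, array weights, other filters, the mean of probes, without chromosome 11 and with any 1 of replicates 1 and 2 left out (1011 to 1380 at an unadjusted p under 0.05). With the replicate block it called 0 (1450 at an unadjusted p under 0.05, lowest adjusted p 0.270), so the block changed no call. The cause of these changes was not tested. Without either replicate 3 array the interaction has no estimate.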

Other observations

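Some genes higher in replicate 3 lay side by side. A run of 7 tested neighbours on chromosome 13, from AF067063 through Tcstv1 and BC147527 to Tcstv3, was called whole, with differences from 2.27 to 4.26. H2bc14, H4c11 and H4c12 formed a run of 3 on the same chromosome, Gm13043, Pramel20 and Pramel31 one on chromosome 4, and Mdh2, Hspb1 and Ywhag one on chromosome 5, where Mdh2, mitochondrial malate dehydrogenase, differed by 2.00. Among lower genes Mpig6b, Ly6g6c, Ly6g6d and Ly6g6e formed a run of 4 on chromosome 17, with differences from -1.52 to -1.15. Of the 466 higher genes 58 (12.4%) had a called neighbour, against 9.32% of all tested genes, and of the 284 lower genes 14 (4.93%), against 5.78%. Relatives in a cluster can share probe sequence, so neighbouring calls need not be separate measurements.

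4 families were looked at after their values were seen. Of 8 tested Pramel genes 5 were higher and 0 lower, with a median difference of 1.98. Of 44 tested replication-dependent histone genes 15 were higher and 0 lower, with a median of 0.67 and a range of -0.32 to 2.20. H4c9 read 9.84 (Tip5) and 9.59 (control) in replicate 3, against 7.75 and 7.48 in Tip5 replicates 1 and 2 and 7.57 and 7.25 in control replicates 1 and 2. The brightest histone genes differed little, such as H2ac24 at 0.06. Of 4 tested Tdpoz genes 2 were higher, and of 71 mitochondrial ribosomal protein genes 5 were higher and 0 lower with a median of 0.13, where 4.83% and 2.95% of all genes were higher and lower.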
